A study of Mus musculus with 12 samples.

Results

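Messenger RNA of 8 genes that set how much glucose enters a cell, how lactate crosses its membrane and whether pyruvate is oxidised was followed across 12 libraries of mouse skin. The genes were taken by name, and earlier results of these data were known when they were chosen. They were the glucose transporter genes Slc2a1, Slc2a3 and Slc2a4, the lactate and pyruvate transporter genes Slc16a1 and Slc16a3, and the pyruvate dehydrogenase kinase genes Pdk1, Pdk2 and Pdk3. The PDK proteins are kinases of the pyruvate dehydrogenase complex and not pyruvate kinases, which make pyruvate in the last step of glycolysis. Pdk4 was left out by the rule that chose the genes. Of the 23359 genes in the deposited table these are 8, and all 8 were among the 13761 genes tested.

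The skin came from C3H/HeJ mice in 4 groups of 3 libraries. These were normal skin, for which no time is given, fibrotic skin taken after 6 weeks or after 20 weeks, and, called treated skin below, skin of the 20-week time into which CD36highCD90+ fibroblasts had been transplanted. How the skin was made fibrotic, how old the mice were and whether each library stands for its own mouse are not in the labels, so the p-values speak only of variation among these samples, which may be technical. By its title, the study deals with how fibroblasts' use of fatty acids and glucose bears on the skin matrix. The question asked here is how the entry of glucose and the exits of pyruvate, to lactate or to the mitochondrion, differed at the level of messenger RNA.

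Glucose enters cells through the facilitative carriers of the SLC2 family. GLUT1, the product of Slc2a1, is the carrier of basal glucose uptake in many tissues, including the epidermis, GLUT3 (Slc2a3) is a high-affinity carrier best known from neurons and also found in leukocytes, and GLUT4 (Slc2a4) is the insulin-responsive carrier of skeletal muscle and adipocytes. MCT1 (Slc16a1) and MCT4 (Slc16a3) carry lactate and pyruvate together with a proton, MCT4 being the form typical of cells that export much lactate. The PDK enzymes phosphorylate and switch off the pyruvate dehydrogenase complex, which feeds pyruvate into the citric acid cycle. Slc2a1, Slc16a3 and Pdk1 are known targets of hypoxia-inducible transcription factors.

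Values are FPKM, fragments counted per length of transcript and per library size, so that levels can be compared between genes. Between 12658 and 13364 genes reached 1 FPKM in a library, and the median of the tested genes lay between 9.63 and 10.3 FPKM. Treated libraries varied more among themselves than the others, with a median SD per gene of 0.239 (log2) against 0.142 to 0.148 in the other groups. The epidermal marker list (Krt5, Krt14 and others, 9 of 11 used) took 1.33% to 2.66% of the summed FPKM in the 12 libraries. Skeletal muscle fibre genes (20 used) took 0.014% to 1.81%, adipocyte genes (15 used) 0.236% to 1.36% and wound keratinocyte genes such as Krt6b and Krt16 (10 used) 0.0784% to 5.24%. None of these lists had a marker at 0 in every library.

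The promoter letters of the carriers are shown because Slc2a1 and Slc16a1 moved together and because the hypoxia response element has a short core. RefSeq windows of GRCm38.p6, the assembly also called mm10, were matched for 6 of the 8 genes (not Slc2a3 and Slc2a4). In the 250 bases before the start site, the core ACGTG or GCGTG was searched on both strands. Capitals mark the core as found or its reverse complement. The window of Slc16a1, at chr3:104638414-104638663 on the plus strand, held 4 matches, of which 2 are the same CACGTG read on both strands. CACGTG is also the E-box of other factors.

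Slc16a1: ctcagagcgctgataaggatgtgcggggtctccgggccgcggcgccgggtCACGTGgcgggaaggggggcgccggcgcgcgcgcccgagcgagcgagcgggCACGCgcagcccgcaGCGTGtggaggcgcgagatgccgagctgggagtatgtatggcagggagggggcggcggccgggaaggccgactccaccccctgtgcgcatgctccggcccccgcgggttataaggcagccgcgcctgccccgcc

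Shorter stretches of 29 bases around single matches are given for the other carrier that moved with it, for the second lactate carrier and for Pdk1. They lie 36 bases upstream of the RefSeq start site in Slc2a1 (chr4:119108697-119108725), 27 bases upstream in Slc16a3 (chr11:120949028-120949056) and 78 bases upstream in Pdk1 (chr2:71873134-71873162), all on the plus strand. RefSeq and GENCODE place some starts differently: the Slc16a3 stretch lies inside the GENCODE gene, and the windows of Slc2a1, Slc16a3 and Pdk3 overlap GENCODE exons.
Slc2a1: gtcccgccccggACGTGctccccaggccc
Slc16a3: caggcagcggtgACGTGcgcgggggacgt
Pdk1: ccgcctacatggGCGTGtctttaaccagg

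The number of matches in the first listed window was 2 in Slc2a1, 4 in Slc16a1, 2 in Slc16a3, 1 in Pdk1, 2 in Pdk2 (again a CACGTG read on both strands) and 4 in Pdk3. The windows of a second start site of Pdk1 and of Pdk2 held 0 matches. The core was present in 38.6% of 32851 promoter windows of this length, and in 63.8% of the 9178 windows with a GC content of 60% or more. The members' first windows had a GC content of 62.4% to 76.4%. The letters were thus found beside Slc2a1 and Slc16a1, which rose in fibrotic skin, and beside Pdk2, which fell at 6 weeks, and a match is a description and not a binding site.

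Slc2a1 had the highest level of the 8 genes, with a mean of 87.9 FPKM over the 12 libraries, above 93.6% of the tested genes. Slc16a1 (22.2), Pdk1 (21.5), Pdk3 (17.2) and Pdk2 (16.4 FPKM) followed with ranges over the libraries that overlapped. Slc16a3 (11.04) and Slc2a4 (9.97) lay near the median of tested genes. Slc2a3 was low throughout, at 0.556 to 2.55 FPKM, a range that overlapped only that of Slc16a3.

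Against normal skin, fibrotic skin had more Slc2a1 and Slc16a1 messenger RNA at both times, by 2.37 to 3.46 times on the scale of FPKM + 1. At 6 weeks 2 of the 8 genes rose (Slc2a1 and Slc16a1) and 1 fell (Pdk2), where 17.6% of all tested genes rose and 21.7% fell. At 20 weeks the same 2 genes rose and none of the 8 fell in the limma test, where 15.3% of all tested genes rose and 18.2% fell. Unadjusted p was under 0.05 for 6 members at 6 weeks, of which Pdk1 and Pdk2 were lower, and for 4 at 20 weeks, all higher, against 49.5% and 45.7% of all tested genes. The 3 libraries did not overlap those of normal skin in 4 members at 6 weeks and in 4 members at 20 weeks. These shares are near those of all tested genes, which were 58.1% and 54.6%. The median log2 fold change of the members was 0.28 at 6 weeks and 0.30 at 20 weeks, against -0.05 and -0.04 over all tested genes.

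**Figure D1:**
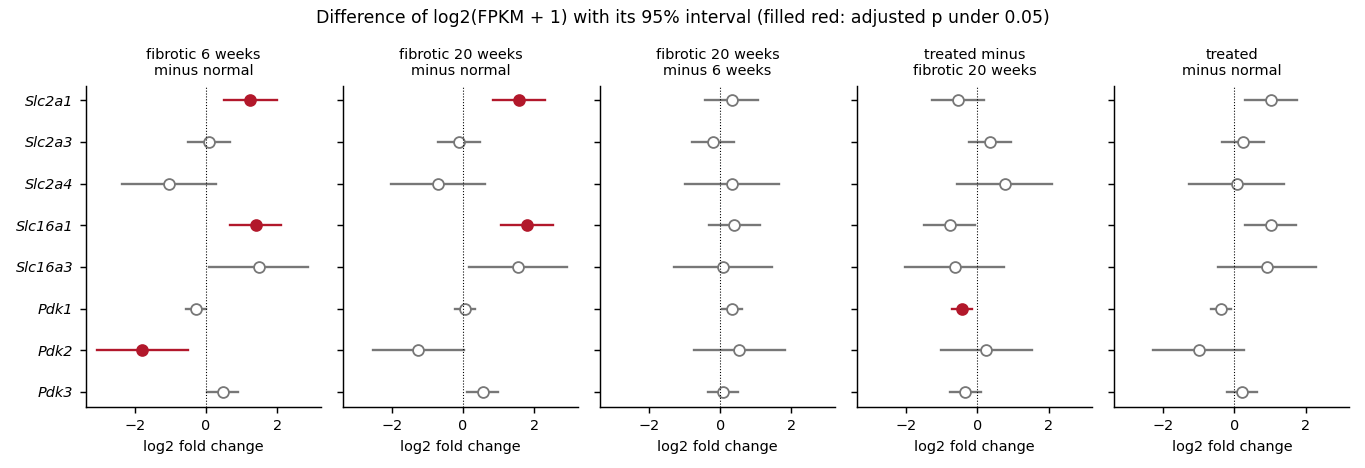
Difference in log2(FPKM + 1) between groups (horizontal axis) for each of the 8 genes in the 5 comparisons; points are limma estimates, lines their 95% intervals, and filled red points have an adjusted p under 0.05. Slc2a1 and Slc16a1 lie to the right of 0 in both comparisons of fibrotic with normal skin, and Pdk2 lies farthest to the left at 6 weeks.

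Slc2a1 was at 40.2, 48.1 and 33.4 FPKM in the 3 normal libraries, at 101, 109 and 81.7 in fibrotic skin at 6 weeks and at 141, 133 and 94.1 in fibrotic skin at 20 weeks. Every fibrotic library thus lay above every normal one. In treated skin it stood at 139, 86.4 and 46.8 FPKM in replicates 1, 2 and 3. Replicate 1 was as high as the fibrotic libraries of 20 weeks, and replicate 3 lay within the normal range.

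The log2 fold change of Slc2a1 was 1.25 ± 0.33 at 6 weeks (SE, n = 3 per group, adjusted p = 0.015) and 1.57 ± 0.33 at 20 weeks (adjusted p = 0.0067), on the log2(FPKM + 1) scale. Without replicate 3 of normal skin or replicate 2 of fibrotic skin at 6 weeks, the adjusted p at 6 weeks was 0.0507 and 0.055. The later fibrotic skin differed from the earlier by 0.32 (95% interval -0.42 to 1.06, adjusted p = 0.627), with overlapping libraries.

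Slc2a4 was at 18.4, 4.61 and 16.7 FPKM in normal skin, at 5.65, 2.67 and 8.05 at 6 weeks and at 4.52, 6.72 and 9.46 at 20 weeks. Normal replicate 2 lay inside the fibrotic range and the other normal libraries above it. In treated skin the values were 5.30, 12.4 and 25.2 FPKM, the widest spread of Slc2a4 in any group. None of its comparisons passed: its log2 fold change was -1.04 at 6 weeks (95% interval -2.37 to 0.28, adjusted p = 0.186) and -0.70 at 20 weeks (-2.03 to 0.62, adjusted p = 0.385).

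Slc2a3 was at 0.923, 1.24 and 1.34 FPKM in normal skin, 1.66, 1.94 and 0.556 at 6 weeks, 1.29, 0.995 and 0.760 at 20 weeks, and 1.22, 1.13 and 2.55 in treated skin. All groups overlapped, and the log2 fold changes lay between -0.20 and 0.35 with adjusted p from 0.363 to 0.803. At such levels the added 1 FPKM understates a fold change. Neutrophil genes (10 used), which took 0.00352% to 0.0125% of the summed FPKM in normal skin, took 0.221% to 0.594% at 6 weeks. Macrophage genes (15 used) took 0.0271% to 0.0532% and 0.0605% to 0.164%. Their part in the level of Slc2a3 was not tested.

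The make-up of the 3 glucose carriers followed from these values. The sum of Slc2a1, Slc2a3 and Slc2a4 was 55.0 ± 4.17 FPKM in normal skin, 104 ± 12.4 at 6 weeks, 131 ± 23.2 at 20 weeks and 107 ± 36.0 in treated skin (SD, n = 3 each). Slc2a1 made up 67.5%, 89.2% and 64.9% of it in normal skin, but 90.2% to 96.1% in the 6 fibrotic libraries. In treated skin the share was 95.5%, 86.5% and 62.8%. The share in normal replicate 2, the library with little muscle RNA, was close to the lower fibrotic ones.

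**Figure D2:**
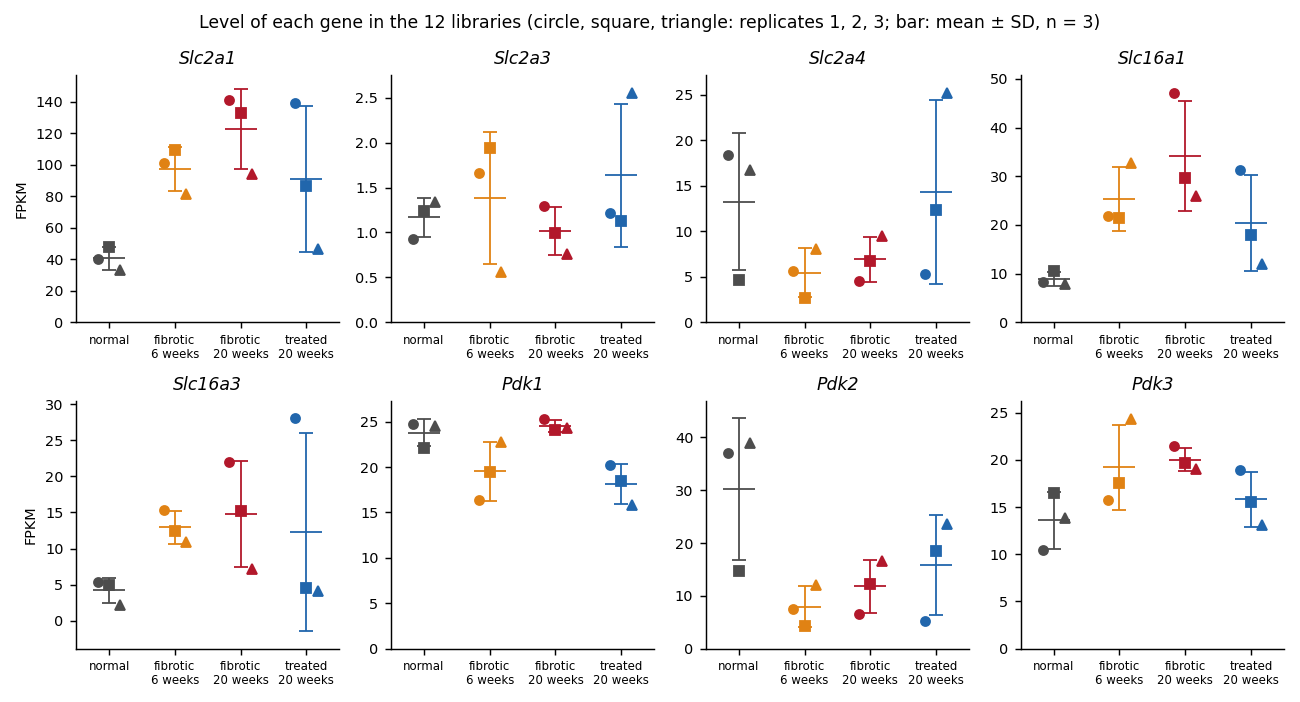
FPKM (vertical axis) of each of the 8 genes in the 4 groups; circles, squares and triangles are replicates 1, 2 and 3, and bars give the mean and SD (n = 3), which for Slc16a3 in treated skin reaches below 0. Slc2a1, Slc16a1 and Slc16a3 are low in all normal libraries and, among the treated libraries, highest in replicate 1, where Slc2a4 and Pdk2 are lowest.

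Slc16a1 was the member with the highest ratio of fibrotic to normal skin at 20 weeks. It stood at 8.32, 10.6 and 7.86 FPKM in normal skin, at 21.7, 21.4 and 32.8 at 6 weeks and at 47.1, 29.6 and 25.9 at 20 weeks. The lowest fibrotic library was above the highest normal one. The log2 fold change was 1.39 ± 0.33 at 6 weeks (SE, n = 3 per group, adjusted p = 0.00866) and 1.79 ± 0.33 at 20 weeks (adjusted p = 0.00355). Both calls held in each of the 14 alternatives run, with adjusted p of at most 0.0311 and 0.0165. In treated skin Slc16a1 was at 31.3, 17.96 and 11.9 FPKM, above normal skin in each library.

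Slc16a3 was at 5.37, 4.99 and 2.21 FPKM in normal skin, at 15.4, 12.4 and 10.97 at 6 weeks and at 21.9, 15.2 and 7.22 at 20 weeks. No fibrotic library reached down into the normal range, and the fold differences were of the size of those of Slc16a1. The SE, from a spread pooled over the 4 groups, was larger, however, at 0.62 against 0.33 for Slc16a1. Neither comparison passed: the log2 fold change was 1.47 at 6 weeks (95% interval 0.09 to 2.85, adjusted p = 0.0829) and 1.55 at 20 weeks (0.17 to 2.93, adjusted p = 0.0787). The highest library was 6.90 times the lowest in treated skin, 2.43 times in normal skin, 1.40 times at 6 weeks and 3.04 times at 20 weeks. In a fit of only the 6 libraries compared, without treated skin and the other fibrotic group, the adjusted p was 0.00782 and 0.0306. With the replicate number as a block over all 12 libraries it was 0.0268 and 0.0261. Slc16a3 passed in only these 2 of 14 alternatives at either time. With a library left out it never passed, with adjusted p of 0.111 to 0.223 at 6 weeks and 0.0595 to 0.229 at 20 weeks. The treated libraries were at 28.1, 4.55 and 4.07 FPKM: replicate 1 was the highest of all 12 and the others lay within the normal range.

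Taken by their sum, Slc16a1 and Slc16a3 reached 13.1 ± 2.81 FPKM in normal skin, 38.2 ± 5.07 at 6 weeks, 49.0 ± 18.3 at 20 weeks and 32.6 ± 23.4 in treated skin (SD, n = 3 each). The share of Slc16a3 in that sum was 31.1% ± 8.69 in normal skin, 34.4% ± 8.41 at 6 weeks, 29.2% ± 6.51 at 20 weeks and 31.0% ± 14.4 in treated skin. These shares differed by less than the spread between libraries.

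Pdk2, the kinase isoform known from a wide range of tissues, was at 37.1, 14.7 and 38.9 FPKM in normal skin and at 7.51, 4.20 and 12.002 in fibrotic skin at 6 weeks. The groups did not overlap, but normal replicate 2 was close to the fibrotic range. Pdk2 fell by 1.79 ± 0.57 on the log2 scale (SE, n = 3 per group, adjusted p = 0.0317). The call ended without normal replicate 1 or 3 or fibrotic replicate 1 or 2 (adjusted p 0.101, 0.0965, 0.0724 and 0.116). At 20 weeks it was at 6.58, 12.3 and 16.5 FPKM, which overlapped normal skin (log2 fold change -1.26, 95% interval -2.53 to 0.02, adjusted p = 0.115). Treated skin had 5.26, 18.4 and 23.6 FPKM.

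Pdk1 had the narrowest range of the 8 genes relative to its level, with 24.7, 22.1 and 24.5 FPKM in normal skin, 16.3, 19.4 and 22.8 at 6 weeks, 25.3, 24.1 and 24.3 at 20 weeks and 20.2, 18.4 and 15.8 in treated skin. The log2 fold change against normal skin was -0.28 at 6 weeks (95% interval -0.56 to -0.01, adjusted p = 0.0947) and 0.05 at 20 weeks (-0.23 to 0.32, adjusted p = 0.807). At 6 weeks Pdk1 passed in 2 of 14 alternatives, under the rescaling (-0.63, adjusted p = 0.00162) and without replicate 3 of fibrotic skin (-0.40, adjusted p = 0.0337). In the other 12 it did not pass, with adjusted p of up to 0.31. The rescaling set the summed FPKM equal in all libraries. That sum left out muscle, hair shaft and cornified genes, 791 short RNAs and 22 genes listed at 0 beside high values. The 6-week libraries lay below all of those at 20 weeks, a difference of 0.33 that did not pass (0.05 to 0.60, adjusted p = 0.19).

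Pdk3 was at 10.45, 16.5 and 13.9 FPKM in normal skin, 15.8, 17.5 and 24.3 at 6 weeks and 21.4, 19.6 and 19.0 at 20 weeks. At 20 weeks all libraries lay above normal skin, and the log2 fold change of 0.54 did not pass (95% interval 0.11 to 0.98, adjusted p = 0.0528). This 20-week difference passed in 4 of 14 alternatives and not in 10, with adjusted p of 0.0364 to 0.322 over them. Under the rescaling the log2 fold change was 0.23 (adjusted p = 0.322). At 6 weeks it was 0.47 (0.04 to 0.90, adjusted p = 0.0794). Treated skin had 18.9, 15.5 and 13.1 FPKM.

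The shares of the 3 kinase genes are given without a test. Pdk2 made up 51.4%, 27.6% and 50.3% of their sum in normal skin and 19.0%, 10.2% and 20.3% at 6 weeks. At 20 weeks its share was 12.4%, 21.9% and 27.6%, and in treated skin 11.9%, 35.2% and 45.0%. Normal replicate 2 and fibrotic replicate 3 of 20 weeks had the same share. Pdk3 went from 21.1% ± 8.68 of the sum in normal skin to 41.2% ± 1.34 at 6 weeks and 35.7% ± 4.25 at 20 weeks (SD, n = 3 each). The sum itself was 67.7 ± 12.7 FPKM in normal skin, 46.6 ± 10.9 at 6 weeks, 56.4 ± 3.32 at 20 weeks and 49.8 ± 4.67 in treated skin.

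**Figure D3:**
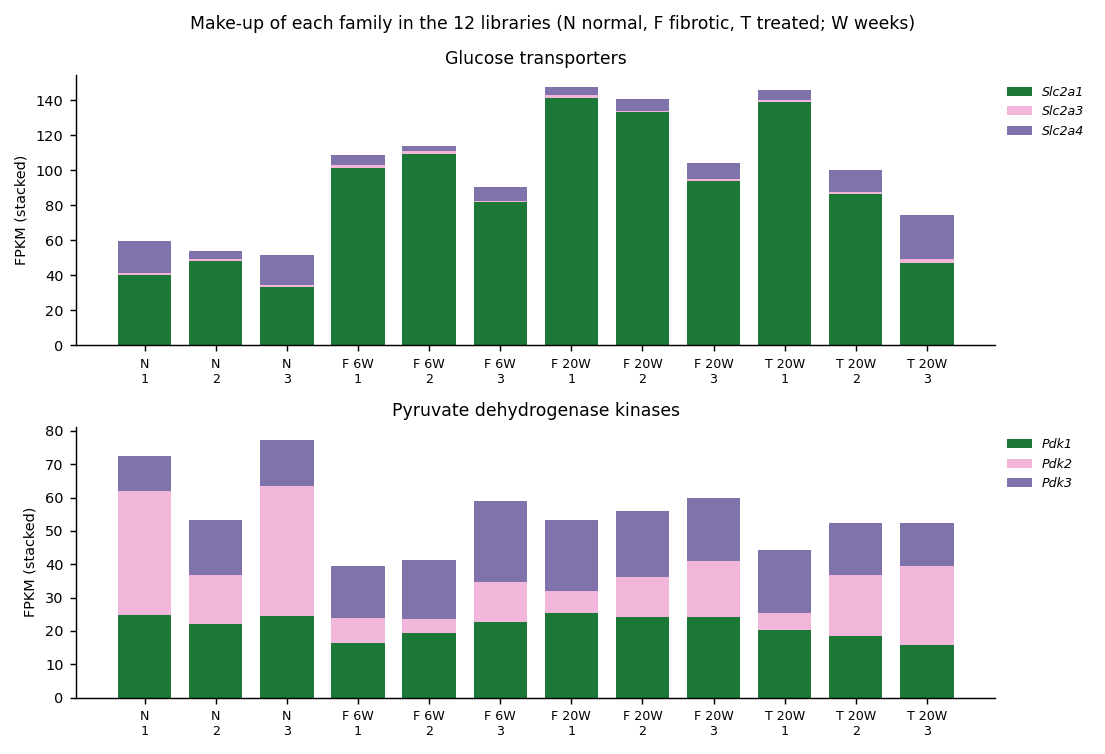
Stacked FPKM (vertical axis) of the 3 glucose carriers (upper panel) and the 3 PDK genes (lower panel) in each of the 12 libraries, named by group and replicate. The Slc2a1 part is taller in all fibrotic libraries than in normal ones, and the Pdk2 part is thinnest in fibrotic replicate 2 of 6 weeks and in treated replicate 1.

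In treated against untreated fibrotic skin at 20 weeks, the carriers' mean levels were lower for Slc2a1, Slc16a1 and Slc16a3, but these differences did not pass. Those of Slc2a3 and Slc2a4 were higher, by 0.355 (adjusted p = 0.363) and 0.77 (adjusted p = 0.386) on the log2 scale, and did not pass either. Of the 8 genes 1 fell (Pdk1) and 0 rose in the limma test, where 10.9% of all tested genes fell and 4.45% rose. Unadjusted p was under 0.05 for 2 members, Pdk1 and Slc16a1, against 34.7% of all tested genes. Pdk1 went from 24.6 ± 0.642 to 18.1 ± 2.23 FPKM (SD, n = 3 each) without overlap, by -0.42 ± 0.12 on the log2 scale (SE, adjusted p = 0.0456). It was the call that depended most on the processing: it held in 3 of 14 alternatives and had adjusted p of 0.0149 to 0.36 over them. The value was -0.14 (adjusted p = 0.36) under the rescaling and -0.50 to -0.33 with a library left out. The libraries of Pdk1 and Pdk3 did not overlap between the groups, 2 of 8 genes, against 32.2% of all tested genes.

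For Slc2a1 the log2 fold change in treated against fibrotic skin was -0.54 (95% interval -1.28 to 0.19, adjusted p = 0.268). For Slc16a1 it was -0.78 (-1.50 to -0.05, adjusted p = 0.123) and for Slc16a3 -0.63 (-2.01 to 0.75, adjusted p = 0.497). These values depended on single treated libraries. Without replicate 1, Slc2a1 fell by 0.92 (adjusted p = 0.0264), Slc16a1 by 1.12 (adjusted p = 0.0125) and Slc16a3 by 1.45 on the log2 scale (adjusted p = 0.0207), and 4 of the 8 genes were called. Without replicate 3 the differences were -0.14, -0.46 and -0.19, none of them called (adjusted p 0.772, 0.4 and 0.887). Leaving out replicate 1 also raised the number of all genes called from 2108 to 5216. Leaving out any other library of these groups lowered that number. It was 532 without treated replicate 2 and 297 without treated replicate 3. Without replicates 1, 2 and 3 of fibrotic skin at 20 weeks it was 341, 959 and 3.

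Against normal skin, treated skin had 0 of the 8 genes called in limma, where 20.7% of all tested genes passed in either direction. Unadjusted p was under 0.05 for Slc2a1 (log2 fold change 1.02, adjusted p = 0.0526), Slc16a1 (1.01, adjusted p = 0.0512) and Pdk1 (-0.38, adjusted p = 0.0549), 3 genes of 8 against 37.2% of all tested genes. Slc16a1 and Pdk1 did not overlap between treated and normal skin, 2 of 8 genes against 37.5% of all tested genes. Without treated replicate 3, Slc2a1 had 1.43 (adjusted p = 0.00998), Slc16a1 1.33 (adjusted p = 0.0226) and Pdk1 -0.29 (adjusted p = 0.145). Without treated replicate 1, Slc2a1 had 0.65 (adjusted p = 0.11), Slc16a1 0.67 (adjusted p = 0.112) and Pdk1 -0.46 (adjusted p = 0.0361). The comparisons of treated skin with fibrotic and with normal skin share the treated libraries, and those of the other groups share the normal or fibrotic ones.

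Between fibrotic skin at 20 and at 6 weeks 0 of the 8 genes were called in limma, as were 0.0363% of all tested genes. Pdk1 alone, 1 of the 8, had an unadjusted p under 0.05, against 19.9% of all tested genes. The intervals were widest for Slc16a3 (-1.31 to 1.45), Slc2a4 (-0.99 to 1.66) and Pdk2 (-0.74 to 1.81).

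Marker genes of other cell types moved with some of these values. Wound keratinocyte genes took 0.13%, 0.133% and 0.0784% of the summed FPKM in normal skin, 3.78%, 5.24% and 3.76% at 6 weeks, 3.24%, 2.64% and 2.35% at 20 weeks and 2.65%, 0.799% and 0.301% in treated skin. By this summed share the 3 libraries of each of the 4 groups stood in the same order as by Slc2a1, with a near tie in normal skin. By the mean log2 level of the list the order was the same in 3 of the 4 groups, normal skin being the exception. The list rose in 9 of 10 tested members at 6 and at 20 weeks, against 17.6% and 15.3% of all tested genes. Epidermal keratinocyte genes took 1.33% to 1.56% in normal skin, 1.98% to 2.66% in fibrotic skin and 2.23%, 1.88% and 1.34% in treated skin. The part of these cells in the level of Slc2a1 was not tested, and in whole skin fewer cells of a type cannot be told apart from less RNA per cell.

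Muscle fibre genes took 1.22%, 0.0464% and 1.81% of the summed FPKM in normal skin, 0.285%, 0.014% and 0.5% at 6 weeks, 0.166%, 0.376% and 0.735% at 20 weeks and 0.0247%, 0.465% and 0.806% in treated skin. Within each of the 4 groups the libraries stood in the same order by Pdk2 and by the muscle list, by its summed share and by its mean log2 level. The match was also seen for Slc2a4 in all groups but normal skin. Of 88 pairs of a member and a marker list, by summed share, 2 had the same order in all 4 groups (Slc2a1 with wound keratinocytes and Pdk2 with muscle) and 2 the reverse order (Slc2a1 with muscle and Pdk2 with wound keratinocytes). These pairs were picked after the values were seen.

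Adipocyte genes took 0.336% to 0.641% in normal skin, 0.37% to 0.801% at 6 weeks, 0.236% to 0.387% at 20 weeks and 0.241%, 0.7% and 1.36% in treated skin. The list's mean log2 level, set against the normal mean, was 0.52, 0.08 and -0.6 in normal skin. It was -0.72, -0.58 and -1.22 at 6 weeks, a lower level that the summed share did not show. At 20 weeks it was -1.18, -0.68 and -0.66, and in treated skin -0.59, 0.68 and 1.68. Of the 15 tested adipocyte genes, 1 was called lower and 0 higher at 6 weeks, against 21.7% and 17.6% of all tested genes. Treated replicate 3, with the highest share of adipocyte genes, also had the highest Slc2a4. The part of muscle and fat in these differences was not tested.

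**Figure D4:**
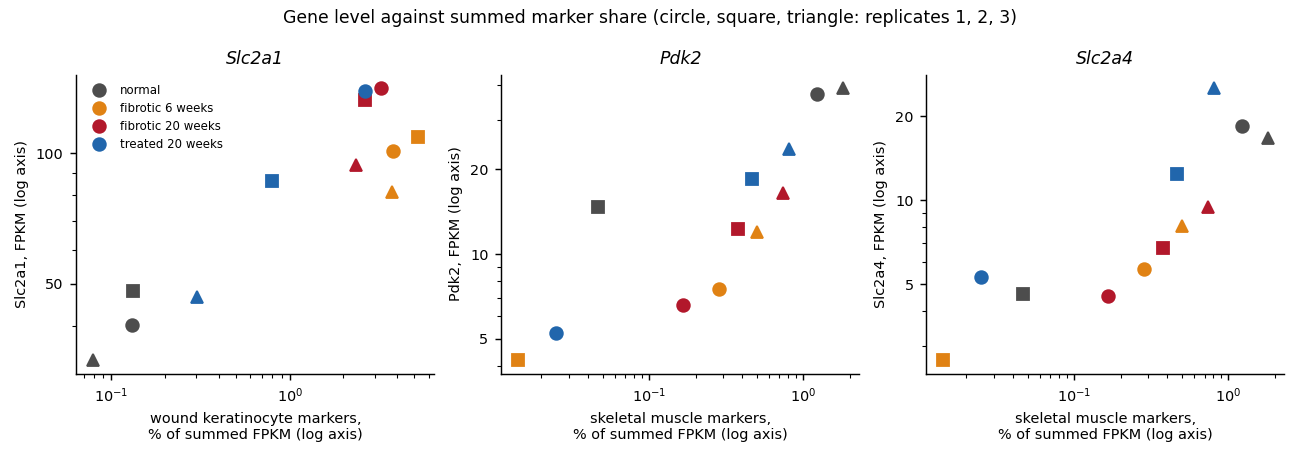
FPKM of Slc2a1, Pdk2 and Slc2a4 (vertical, log axes) against the percentage of the summed FPKM taken by wound keratinocyte or skeletal muscle marker genes (horizontal, log axes) in the 12 libraries; colours are groups and symbols replicates. Treated replicate 1 (blue circle) lies beside the fibrotic libraries for Slc2a1 and treated replicate 3 (blue triangle) beside the normal ones.

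The other sugar transporters were read from a list of 11 SLC2 and sodium-glucose carrier genes, of which 8 were tested. At 6 weeks 2 rose and 3 fell (median log2 fold change -0.26), and at 20 weeks 2 rose and 1 fell (median -0.29). Of all tested genes 17.6% rose and 21.7% fell at 6 weeks and 15.3% rose and 18.2% fell at 20 weeks, with medians of -0.05 and -0.04. Slc2a12, which encodes GLUT12, another carrier reported to respond to insulin, fell from 19.3 ± 4.98 to 2.57 ± 0.584 FPKM at 6 weeks (SD, n = 3 each), by 2.49 on the log2 scale (adjusted p = 0.000958), and by 1.99 at 20 weeks (adjusted p = 0.00355). Slc5a1, the sodium-glucose cotransporter gene, rose from 8.25 ± 1.67 to 33.2 ± 4.40 FPKM at 20 weeks, a log2 fold change of 1.89 (adjusted p = 0.00586). In treated against fibrotic skin it fell by 1.58 (adjusted p = 0.0275), to 23.4, 8.56 and 5.34 FPKM. Slc2a9, which encodes a urate carrier, rose by 1.48 at 6 weeks and 1.44 at 20 weeks (adjusted p = 0.00356 and 0.00508). Its mean in normal skin was 1.32 FPKM. Treated skin had less Slc2a12 than normal skin (-1.29, adjusted p = 0.0334), and more Slc2a6 than fibrotic skin (0.67, adjusted p = 0.0468). Slc2a6 was low, at 2.00 FPKM in treated and 0.834 in fibrotic skin at 20 weeks, where the added 1 FPKM understates a fold change.

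Of 16 genes of the wider SLC16 family, its partner proteins and sodium-coupled monocarboxylate carriers, 13 were tested. At 6 weeks 3 rose and 5 fell (median -0.05), and at 20 weeks 4 rose and 5 fell (median 0.06), against 17.6% and 21.7%, and 15.3% and 18.2%, of all tested genes. Bsg, which encodes basigin, the chaperone that brings MCT1 and MCT4 to the cell surface, was at 178 ± 12.7 FPKM in normal skin and 234 ± 27.3 at 20 weeks (SD, n = 3 each), a rise of 0.39 (adjusted p = 0.0345). Emb, which encodes embigin, a partner of MCT2, fell from 63.6 ± 1.91 to 16.4 ± 3.81 FPKM at 6 weeks, by 1.92 on the log2 scale (adjusted p = 0.000753), and stood at 15.7 ± 3.41 at 20 weeks (-1.97, adjusted p = 0.000978). Slc16a7, the MCT2 gene, fell by 0.96 at 20 weeks (adjusted p = 0.0354) and was higher in treated than in fibrotic skin by 1.46 (adjusted p = 0.0193). It was low, at 0.572, 0.84 and 0.768 FPKM in fibrotic skin at 20 weeks and 2.37, 2.92 and 7.14 in treated skin. Slc16a14 and Slc16a5 were lower in treated than in fibrotic skin (-1.07 and -0.81, adjusted p = 0.0398 and 0.0205). Slc16a5 was also low, with means of 1.32 FPKM in fibrotic skin at 20 weeks and 0.339 in treated skin. At the levels of Slc16a7 and Slc16a5 the added 1 FPKM understates a fold change. Slc16a10, a carrier of aromatic amino acids, fell by 1.13 at 6 weeks and 1.20 at 20 weeks (adjusted p = 0.0039 and 0.00384). Slc5a8, a sodium-coupled lactate carrier, rose from a mean of 2.1 FPKM by 1.76 at 20 weeks (adjusted p = 0.0113). Treated skin had less Emb than normal skin (-1.19, adjusted p = 0.0148).

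The enzymes that make and remove lactate changed beside the carriers. Ldha, the lactate dehydrogenase subunit favoured in glycolytic cells, rose from 294 ± 86.6 to 668 ± 19.0 FPKM at 6 weeks (SD, n = 3 each, log2 fold change 1.23, adjusted p = 0.00844) and to 684 ± 132 at 20 weeks (1.24, adjusted p = 0.00949). Ldhb, the subunit of oxidative tissues, fell from 83.1 ± 13.6 to 19.4 ± 4.52 and 27.5 ± 3.76 FPKM, by 2.06 (adjusted p = 0.00184) and 1.56 (adjusted p = 0.00828). Pkm, the pyruvate kinase gene of most tissues, rose by 1.44 and 1.59 (adjusted p = 0.00434 and 0.0036). Pkm was also higher in treated than in normal skin (1.01, adjusted p = 0.0351), as was Ldhd, a lactate dehydrogenase gene of the mitochondrion (0.76, adjusted p = 0.0173). Of the 5 genes on this list 4 were tested, with a median of 0.55 and 0.72, against -0.05 and -0.04 over all tested genes. At each time 2 rose and 1 fell. Of all tested genes 17.6% rose and 21.7% fell at 6 weeks, and 15.3% rose and 18.2% fell at 20 weeks.

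The target of the PDK enzymes and the mitochondrial entry of pyruvate were read from 10 genes, all tested. At 6 weeks 3 of the 10 fell (median -0.37), near the 21.7% of all tested genes, and at 20 weeks 5 fell (median -0.41), against 18.2%. Pdha1, which encodes the subunit that the kinases phosphorylate, was at 89.9, 68.2 and 100 FPKM in normal skin and at 52.8, 49.8 and 57.7 at 6 weeks. It fell by 0.66 on the log2 scale (adjusted p = 0.0186), and by 0.62 at 20 weeks (adjusted p = 0.0274). Pdpr, a regulator of the opposing phosphatase, fell by 1.21 and 0.67 (adjusted p = 0.00228 and 0.0366). The pyruvate carrier genes Mpc1 and Mpc2 fell by 0.83 and 0.89 at 20 weeks (adjusted p = 0.0235 and 0.0142). Pdp1, a phosphatase gene that opposes the kinases, fell by 0.59 at 6 weeks (adjusted p = 0.0219).

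Genes of glucose transporter trafficking and turnover (13, all tested) fell in 7 and rose in 1 at 6 weeks (median -0.37), and fell in 6 and rose in 3 at 20 weeks (median -0.25). Of all tested genes 21.7% fell and 17.6% rose at 6 weeks, and 18.2% fell and 15.3% rose at 20 weeks. Txnip, whose product lowers glucose uptake by removing GLUT1 from the cell surface, was at 318, 311 and 352 FPKM in normal skin, at 67.4, 65.3 and 90.0 at 6 weeks, and at 71.0, 126 and 119 at 20 weeks. It fell by 2.14 (adjusted p = 0.00109) and 1.67 (adjusted p = 0.00446) on the log2 scale. Treated libraries had 85.7, 193 and 204 FPKM, replicate 1 again beside the fibrotic ones. Tbc1d4, a brake on GLUT4 movement, fell by 0.79 at 6 weeks and by 1.12 at 20 weeks (adjusted p = 0.0279 and 0.00761). Lnpep, a protein of GLUT4 vesicles, fell by 1.29 at 6 weeks (adjusted p = 0.000106) and by 0.70 at 20 weeks (adjusted p = 0.001). Arrdc4, a relative of Txnip, rose by 0.94 and 0.93 (adjusted p = 0.038 and 0.0456). Rab10, a small GTPase of GLUT4 movement, was lower in treated than in fibrotic skin (-0.88, adjusted p = 0.019). Against normal skin, treated skin had less Txnip (-1.12, adjusted p = 0.0357), Vamp2 (-0.76, adjusted p = 0.00454) and Lnpep (-0.75, adjusted p = 0.00222).

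The genes most like each member were those with the highest Pearson correlation of log2(FPKM + 1) over the 12 libraries among 12867 genes compared. The libraries share their groups, so that r mostly measures a like pattern over groups and is given as a description. For Slc2a1 they were Ppa1 (r = 0.972), Prss27 (0.969) and Tmed9 (0.967), and for Slc16a1 Apol8 (0.972), Nudt5 (0.967) and Fxyd4 (0.966). For Slc16a3 they were Ddx24 (0.950), Pfkp, a phosphofructokinase gene of glycolysis (0.946), and Tpm3 (0.945). Pdk2 was closest to Pink1, a mitochondrial kinase gene (0.979), Ppp1r12b (0.978) and Filip1 (0.978), and Slc2a4 to Mettl22 (0.977) and Tmem52 (0.962). Pdk1, Pdk3 and Slc2a3 had lower best values, with Fam134b (0.946), Cyp17a1 (0.918) and Cox17 (0.882) in first place.

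Among the members themselves, Slc2a1 had r = 0.93 with Slc16a1 and 0.89 with Slc16a3 over the same 12 libraries, and Slc2a4 had 0.88 with Pdk2. Slc2a1 and Pdk2 had -0.85. Pdk1 had values between -0.08 and 0.23 with all members but Slc2a3, with which it had -0.70.

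By position in GRCm38 (GENCODE M21), all 8 are protein-coding genes. Slc2a1 lies at chr4:119108711-119137983 and Slc16a1 at chr3:104638668-104658462, both on the plus strand. Pdk2 (chr11:95026258-95041354), Slc2a4 (chr11:69942539-69948188) and Slc16a3 (chr11:120948480-120960868) lie on 1 chromosome, Slc16a3 on the plus strand and the others on the minus strand. Pdk1 lies at chr2:71873224-71903858 on the plus strand, and Slc2a3 (chr6:122727809-122801640) and Pdk3 (chrX:93764607-93832201) on the minus strand.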

How the data were processed

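Skin RNA (250 ng, polyadenylated, stranded library kit) was sequenced in paired-end runs of 101 cycles, per the labels' protocols, which also state a minimum depth. The authors deposited 1 table of FPKM values. The submitters' processing notes name the mm10 assembly, cutadapt 1.7.1, Bowtie2 2.2.3, TopHat2 2.0.13 and Cufflinks 2.2.1. The annotation used is not given in the sources used for this work. With FPKM alone, read depth is unknown for each value.

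Groups came from the sample titles. log2(FPKM + 1) of 13761 genes (1 FPKM or more in 3 or more libraries) was fitted in limma 3.58.1 (R 4.3.3) with a mean for each of 4 groups and an intensity trend over 12 libraries. All tests are 2-sided. Benjamini-Hochberg adjustment ran over all tested genes in each of 5 comparisons, with calls at 0.05. One spread is shared by groups that do not vary alike. An exact permutation test of 3 against 3 cannot give p below 0.10 and was not used. The script was tested on simulated data. The members and lists were chosen with earlier results of these data known. Members are named in every comparison. List genes could be named where they were called without overlap (up to 3 a list and comparison, by size), and not all of these are. The values of Bsg, of Pdha1, Slc16a7 and Lnpep at 20 weeks and of Tbc1d4 at 6 weeks fall outside that rule and were chosen after they were seen. For each member the 3 genes of highest Pearson r were taken. Some genes that these rules name are not reported here. Promoter sequences are from RefSeq (GRCm38.p6). Marker shares are of FPKM summed without 791 short RNAs and 22 genes listed at 0 beside high values. The rescaling set that sum, also without the muscle, hair shaft and cornified lists, equal in all libraries. The alternatives were another pseudocount, 2 filters, 2 scalings, a fit of 6 libraries, a block for the replicate number, no trend, a 2-fold threshold and each library left out.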

Additional observations from a re-analysis of the deposited data

How the results depend on the processing

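The count of members called was 3 at 6 weeks against normal skin and ranged from 1 to 4 with a library left out: it was 1 without normal replicate 3 or fibrotic replicate 2. At 20 weeks it was 2, 2 to 3 with a library left out, and 4 in a fit of the 6 libraries compared only. For treated against fibrotic skin it was 1. It was 0 without a filter, under either scaling, in the fit of 6 libraries, with the replicate block, without the trend, with a 2-fold threshold, and without any library other than treated replicate 1, whose removal gave 4. For treated against normal skin it was 0. It became 1 with a pseudocount of 0.1, 3 with a filter at a mean of 5 FPKM and 2 with median-of-ratios scaling. It was 3 after the rescaling, and 0 to 2 with a library left out (2 without treated replicate 3, 1 without treated replicate 1). The causes were not tested. Between 20 and 6 weeks it was 0 throughout.

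With the replicate number as a block the counts were 4, 3, 0, 0 and 1 in the 5 comparisons (6 weeks and 20 weeks against normal, 20 against 6 weeks, treated against fibrotic and against normal). Slc16a3 was gained at both times (adjusted p 0.0268 and 0.0261) and Slc2a1 in treated against normal skin (0.0234), and Pdk1 was lost in treated against fibrotic skin (0.0825). The labels do not say that the numbers pair samples. Deviations of same-numbered libraries correlated from -0.35 to 0.291 over 18 pairs, those of others from -0.315 to 0.418, and 2 of 12 libraries correlated best with one of their own number.

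Without short RNAs and genes listed at 0 beside high values, libraries summed to 471555 to 505776 FPKM in normal skin and 594953 to 681633 at 6 weeks. At 20 weeks fibrotic skin had 600754 to 631771 and treated skin 463271 to 549305. The rescaling made such sums equal, with the 3 marker lists also left out. It moved the median of all tested genes from -0.05 to -0.37 at 6 weeks, from -0.04 to -0.33 at 20 weeks and from -0.004 to 0.245 in treated against fibrotic skin. Under it 17.3% in place of 44.9% of the called genes were higher at 6 weeks, 16.6% in place of 45.6% at 20 weeks and 76.9% in place of 29.0% in treated against fibrotic skin. Slc2a1 and Slc16a1 stayed called under the rescaling, at 0.89 and 1.05 at 6 weeks and 1.24 and 1.48 at 20 weeks. Median-of-ratios scaling gave 51.0% in place of 36.5% of called genes higher in treated against normal skin. In the fit of 6 libraries 3 of all tested genes were called for treated against fibrotic skin in place of 2108, 138 in place of 2855 for treated against normal skin, and 478 in place of 5 between 20 and 6 weeks.

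Signs reversed only for values that were not called. The rescaling gave -0.112 for Slc2a3 at 6 weeks and -0.279 for Pdk1 at 20 weeks. With a library left out, the ranges were -0.086 to 0.373 and -0.005 to 0.073 for these, -0.022 to 0.629 (Slc2a4), -0.256 to 0.484 (Slc16a3) and -0.043 to 0.253 (Pdk3) between 20 and 6 weeks, -0.131 to 0.858 for Pdk2 in treated against fibrotic skin and -0.51 to 0.588 for Slc2a4 in treated against normal skin. Of 555 values of members under alternatives, 496 kept direction and side of the threshold.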
